A study of Mus musculus with 4 samples.

Results

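Eosinophil granule and receptor genes were described here in mouse spleen as 8 genes chosen by name: Prg2, Epx, Ear1, Ear2, Ear6, Ccr3, Siglecf and Il5ra. Each was found by its symbol among the 23763 genes of the deposited table, and all 8 had enough mean signal over all libraries to be tested. The study compared RNA from the spleens of KLHL3 knock-in (KLHL3-KI) mice with RNA from wild-type (WT) mice, both C57BL/6J and both at baseline, with 2 libraries in each group. RNA was sequenced in directional libraries after depletion of ribosomal RNA. Neither the inserted KLHL3 change nor the sex or age of the animals is stated in the labels. The labels do not say whether the 2 libraries of a group came from separate animals, so p-values measure only the spread between these libraries, which may be technical.

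Eosinophils are white blood cells of the bone marrow, blood and tissues, and the spleen holds some of them. Their large granules are packed with toxic basic proteins: major basic protein (Prg2), which forms the granule core, eosinophil peroxidase (Epx), and small ribonucleases, which in mice form the Ear family. The cells make these proteins while they mature. On their surface they carry the interleukin-5 receptor, whose alpha chain (Il5ra) binds a cytokine that drives their growth and survival. They also carry the eotaxin receptor Ccr3, which guides them into tissue, and Siglecf, an inhibitory lectin. Some of these genes are known from other cells too: Ear2 from monocytes, Ccr3 from basophils, Siglecf from alveolar macrophages and Il5ra from B-1 cells.

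Among the 8 members, granule genes were higher and surface receptor genes were not detectably different in KLHL3-KI spleen. Prg2 averaged 71.1 ± 25.1 in KLHL3-KI and 11.95 ± 0.0245 in WT libraries, and Epx averaged 23.4 ± 14.0 and 2.03 ± 1.55 (SD, n = 2 each; scaled read counts). Ear1 and Ear6 were about as strongly raised as Epx, while Ear2 was 1.54 times its WT mean. Ccr3, Siglecf and Il5ra had KLHL3-KI means of 1.10, 1.13 and 0.791 times their WT means. In all, 5 of the 8 genes rose and 0 fell at a Benjamini-Hochberg adjusted p under 0.05 with limma, against 15.2% of all 16970 genes tested that rose and 7.56% that fell. With edgeR 5 members rose and 0 fell, against 14.9% and 7.98% of all genes, and with DESeq2 4 rose and 0 fell, against 11.9% and 4.67%. The members, and the gene lists below, were chosen with earlier results of these data known. Their counts beside the shares of all genes are therefore descriptive and no test of an excess. No member was lower at an unadjusted limma p under 0.05. A scaled read count is the number of reads of a gene over a scaling factor that is the same for every gene of a library. In bulk RNA, more cells of a type and more RNA per cell cannot be told apart.

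Single values of Ear1 and Ear2 are uncertain, because reads can also fit other genes of the family. Ear1 and Ear2 share nearly all of the bases before their gene starts, and their measured differences between groups were far apart. For this reason the 250 bases upstream of each annotated start are shown, 5′ to 3′ along the gene, as RefSeq gives them on build GRCm38.p6. Capitals mark bases that differ from Ear1 in the alignment, and in the Ear1 line bases that differ from Ear2. All 3 lie on chromosome 14.
Ear1, chr14:43819640-43819889 (- strand): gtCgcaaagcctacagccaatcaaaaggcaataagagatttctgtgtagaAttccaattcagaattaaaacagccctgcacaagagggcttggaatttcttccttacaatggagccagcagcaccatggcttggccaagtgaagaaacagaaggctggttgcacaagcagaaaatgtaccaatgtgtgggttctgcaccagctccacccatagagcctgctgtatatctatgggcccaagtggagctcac
Ear6, chr14:51853518-51853767 (+ strand): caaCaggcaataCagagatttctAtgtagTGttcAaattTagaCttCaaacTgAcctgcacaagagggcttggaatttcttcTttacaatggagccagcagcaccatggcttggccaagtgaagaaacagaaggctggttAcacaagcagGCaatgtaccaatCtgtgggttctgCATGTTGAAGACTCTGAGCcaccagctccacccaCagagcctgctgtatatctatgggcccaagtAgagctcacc
Ear2, chr14:44102404-44102653 (+ strand): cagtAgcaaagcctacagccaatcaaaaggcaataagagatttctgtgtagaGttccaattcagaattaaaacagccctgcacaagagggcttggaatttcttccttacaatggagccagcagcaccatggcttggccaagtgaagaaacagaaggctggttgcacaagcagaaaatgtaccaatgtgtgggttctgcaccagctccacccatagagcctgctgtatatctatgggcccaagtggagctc
The Ear1 and Ear2 stretches were 99.2% identical over 248 aligned bases, with 2 differing bases. Ear6 was 92.6% identical to Ear1 over 229 aligned bases and 93.0% identical to Ear2 over 227, and it holds a run of added bases that Ear1 lacks. The promoter table had an entry for 7 of the 8 genes, and Prg2 had none. The motif TTGCNNAA, known for C/EBP factors, matched once in Ear1, starting 92 bases before the gene start, and once in Ear2, starting 90 bases before it. The Ear6 stretch had no match, and 9.56% of the 32851 promoter entries of the same length held the motif. The motif GATAA, known for GATA factors, matched once each upstream of Ccr3 and Il5ra and not upstream of Epx, Siglecf or the Ear genes. It was found in 22.6% of entries. The motif GAGGAA, known for PU.1, matched once each upstream of Ccr3 and Siglecf, against 23.3% of entries. The bases after the table's Ccr3 start were not found in the annotated Ccr3 transcripts, unlike those of the other 6 genes, so the Ccr3 stretch may not precede the start used in that annotation. Both strands were searched, no 2 matches overlapped, and a match describes letters and not binding.

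Prg2 (ENSMUSG00000027073) had 53.3 and 88.8 scaled reads in the KLHL3-KI libraries, replicates 1 and 2, against 11.97 and 11.94 in the WT libraries. These rest on 484 and 912 reads in KLHL3-KI and 107 and 115 reads in WT. Both KLHL3-KI libraries lay above both WT libraries, as they did for 32.8% of all genes tested. On the scale log2(value + 1), Prg2 rose by 2.43 (SE 0.20, limma adjusted p = 2.79e-05).

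Epx (ENSMUSG00000052234), the peroxidase that makes hypobromous acid, had 13.5 and 33.3 in KLHL3-KI replicates 1 and 2, against 3.13 and 0.934 in WT replicates 1 and 2. It was the most uneven of the 5 genes that rose: the ratio between libraries of the same group was 2.46 in KLHL3-KI, where replicate 2 was higher, and 3.35 in WT, where replicate 1 was higher. The WT values rest on only 28 and 9 reads, against 123 and 342 in KLHL3-KI. Its log2 difference was 2.98 (SE 0.42, limma adjusted p = 8.64e-04). It was 2.36 without KLHL3-KI replicate 2, 2.43 without WT replicate 2, 3.53 without WT replicate 1 and 3.601 without KLHL3-KI replicate 1, and all 4 fits called it. A robust variance model did not call Epx (adjusted p = 0.113, range over all alternatives 1.43e-08 to 0.113).

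Ear1 (ENSMUSG00000072601) had 9.25 and 18.3 in KLHL3-KI, against 1.57 and 0.830 in WT. Ear6 (ENSMUSG00000062148) had 9.03 and 15.2 in KLHL3-KI, against 1.01 and 0.727 in WT. Both were close to the limit of detection in WT, with 14 and 8 reads for Ear1 and 9 and 7 reads for Ear6, and well above it in both KLHL3-KI libraries. The WT mean of Ear6, 0.867, was under the minimum of 1, so Ear6 entered the test only through its KLHL3-KI values. Ear1 rose by 2.70 on the log2 scale (SE 0.30, limma adjusted p = 2.13e-04) and Ear6 by 2.78 (SE 0.26, limma adjusted p = 5.47e-05).

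Ear2 (ENSMUSG00000072596) was the most abundant Ear gene in both groups, with 21.3 and 27.3 in KLHL3-KI, against 15.9 and 15.7 in WT. The groups did not overlap, as with the 32.8% of all genes tested that were higher in both KLHL3-KI libraries. The difference of Ear2 was small, 0.58 on the log2 scale (SE 0.15, limma adjusted p = 0.0205). The call of Ear2 ended with DESeq2 (adjusted p = 0.0568), with equal totals per library (0.0593) and without a variance trend (0.0632). It also ended without WT replicate 1 (0.106), without WT replicate 2 (0.130) and without KLHL3-KI replicate 2 (0.137), in a range over all alternatives of 0.00233 to 0.137.

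**Figure D1:**
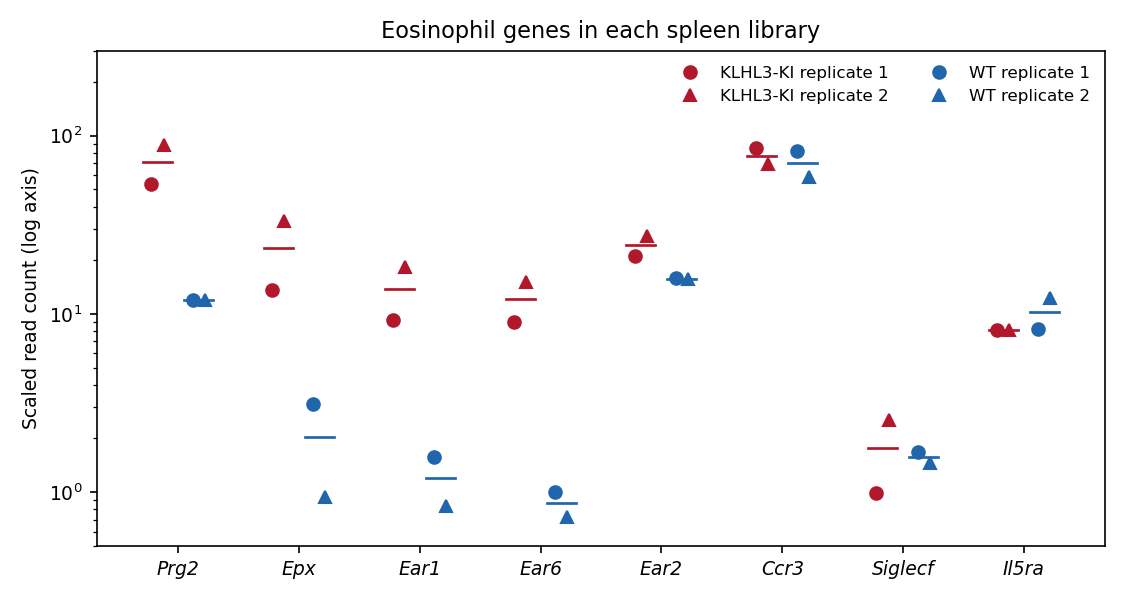
Scaled read counts of the 8 genes in each library on a log axis, KLHL3-KI in red left of WT in blue; circles are replicate 1, triangles replicate 2 and bars the group mean. The KLHL3-KI points of Prg2, Epx, Ear1, Ear6 and Ear2 lie above both WT points, those of Ccr3 and Siglecf overlap with WT, and those of Il5ra, at 8.15 and 8.08, lie just under the lower WT point of 8.28.

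The log2(value + 1) scale understates the change of genes that are low in WT. On the recovered reads, edgeR gave a log2 fold change of 3.53 for Epx, 3.52 for Ear1, 3.78 for Ear6 and 2.56 for Prg2. With a pseudocount of 5 the limma values fell to 1.94, 1.56, 1.52 and 2.13 for the same genes, and with a pseudocount of 0.1 they were 3.55, 3.40, 3.63 and 2.52. The 4 genes passed in each of these fits. The ratios of KLHL3-KI to WT means were 11.5 for Epx, 11.5 for Ear1, 14.0 for Ear6 and 5.94 for Prg2.

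The receptor genes did not pass the test. Ccr3 (ENSMUSG00000035448) had 85.7 and 69.1 in KLHL3-KI, against 82.3 and 58.5 in WT, and the groups overlapped. The log2 difference of Ccr3 was 0.15 (95% limma interval -0.22 to 0.51, adjusted p = 0.558). It changed sign in 3 alternatives, to -0.02 with equal totals per library, -0.10 without WT replicate 2 and -0.01 without KLHL3-KI replicate 1.

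Siglecf (ENSMUSG00000039013) had 0.991 and 2.53 scaled reads in KLHL3-KI, against 1.68 and 1.45 in WT. It rests on 9 and 26 reads in KLHL3-KI and 15 and 14 in WT, and the WT values lie between the KLHL3-KI values. The log2 difference of Siglecf was 0.05 (95% limma interval -0.63 to 0.73, adjusted p = 0.928), so a change of moderate size was not detectable at this depth. It was -0.05 with equal totals per library, -0.01 without WT replicate 2 and -0.36 without KLHL3-KI replicate 2. Il5ra (ENSMUSG00000005364) had 8.15 and 8.08 in KLHL3-KI, against 8.28 and 12.2 in WT. The KLHL3-KI libraries lay below both WT libraries by a narrow margin, as 31.9% of all genes tested did. The log2 difference of Il5ra was -0.28 (95% limma interval -0.72 to 0.16, adjusted p = 0.340), and it was -0.03 without WT replicate 2.

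**Figure D2:**
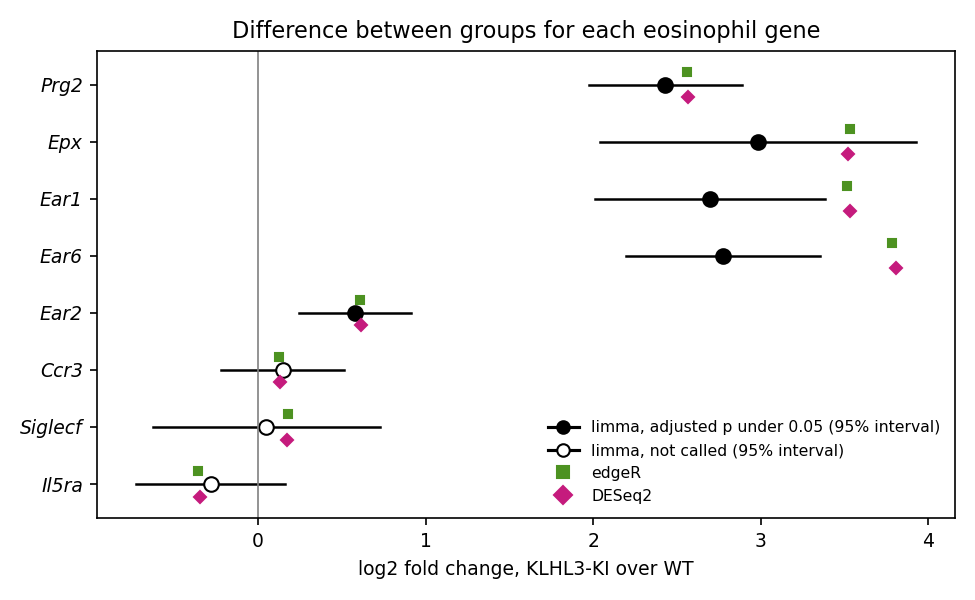
Log2 fold change of KLHL3-KI over WT for each gene; black circles with lines are limma estimates on log2(value + 1) with 95% intervals, filled where the adjusted p was under 0.05, and squares and diamonds are edgeR and DESeq2 on whole reads. The intervals of Prg2, Epx, Ear1 and Ear6 lie above 1.97 and those of Ccr3, Siglecf and Il5ra include 0.

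Within a library, Prg2 stood in different proportions to the receptor genes Ccr3 and Il5ra in the 2 groups. The ratio of Prg2 to Ccr3 was 0.622 and 1.28 in KLHL3-KI, against 0.145 and 0.204 in WT. The ratio of Prg2 to Il5ra was 6.54 and 11.0 in KLHL3-KI, against 1.45 and 0.975 in WT. Neither ratio overlapped between groups. Among all genes tested, 32.8% were higher in both KLHL3-KI libraries than in both WT libraries, and 31.9% were lower in both. The ratios carry the rise of Prg2 given above and are no separate result. An exact test of 2 against 2 libraries cannot go below p = 0.333, so these ratios were not tested. Among granule genes, Ear1 stood at 0.174 and 0.206 of Prg2 in KLHL3-KI and at 0.131 and 0.0696 in WT. Epx stood at 0.254 and 0.375 of Prg2 in KLHL3-KI and at 0.262 and 0.0783 in WT, so that ratio overlapped.

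Per length, the order of the 8 genes was not the same in the 2 groups. In scaled reads per kb of the longest annotated coding transcript, KLHL3-KI means were 84.8 for Prg2, 33.7 for Ear2, 23.7 for Ccr3, 19.3 for Ear1, 13.6 for Ear6, 8.71 for Epx, 2.27 for Il5ra and 0.676 for Siglecf. Ccr3 and Ear1, Ear1 and Ear6, and Ear6 and Epx overlapped between libraries as neighbours in that order, and the other neighbours did not. In WT libraries Ear2 came first at 21.9, followed by Ccr3 at 21.5, Prg2 at 14.3, Il5ra at 2.87, Ear1 at 1.68, Ear6 at 0.971, Epx at 0.756 and Siglecf at 0.601. There, Ear2 and Ccr3, Ear6 and Epx, and Epx and Siglecf overlapped. Prg2 thus stood above Ear2 and Ccr3 in KLHL3-KI and below both in WT spleen.

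Reads of the Ear genes are hard to assign, and the 3 genes differ in this. Of the 50-base windows of the longest coding transcript, 57.4% in Ear1 and 41.5% in Ear2 occur in at least 1 other annotated gene, against 1.07% in Ear6. The gene that shared the most windows was Ear-ps9 for Ear1 (41.4% of windows) and Ear10 for Ear2 (26.0%). The transcripts of Ear1 and Ear2 were 96.8% identical over 713 aligned bases, and Ear6 was 85.4% identical to Ear1 over 650. Single values of Ear1 and Ear2, and the gap between their differences, are therefore uncertain, and the part of read sharing in them was not tested. The ratio of Ear1 to Ear6 was 1.02 and 1.21 in KLHL3-KI and 1.56 and 1.14 in WT, and that of Ear1 to Ear2 was 0.435 and 0.671 in KLHL3-KI and 0.0986 and 0.0530 in WT. Prg2, Epx and Ccr3 shared 0 windows with any other gene, and Siglecf and Il5ra shared 0.235% and 0.936%.

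**Figure D3:**
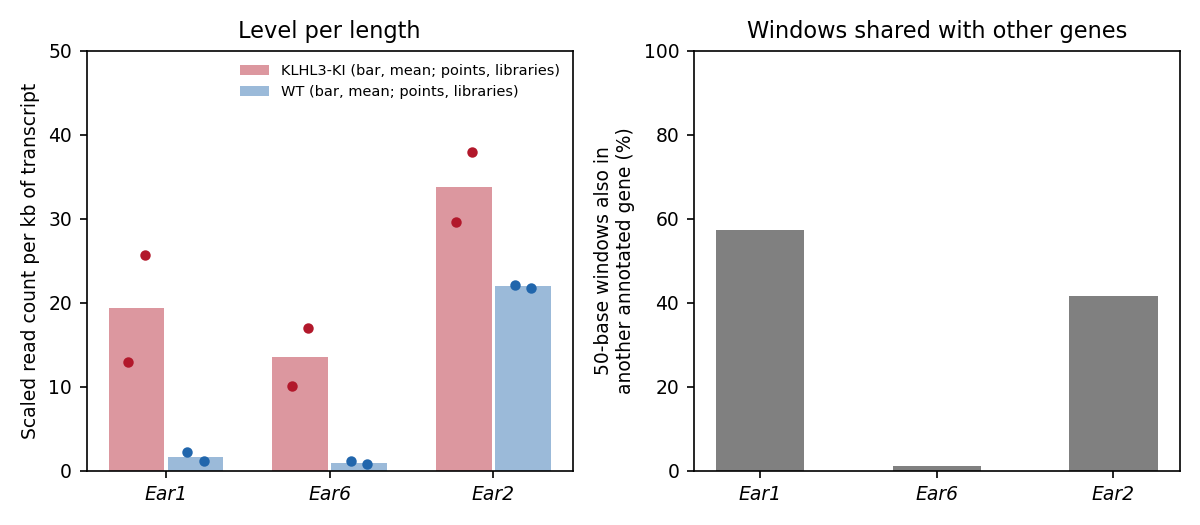
Left, scaled read counts per kb of transcript for Ear1, Ear6 and Ear2 (bars, group mean; points, libraries; KLHL3-KI left of WT); right, the percentage of 50-base transcript windows found in another annotated gene. Ear2 has the highest level in both groups, 33.7 in KLHL3-KI and 21.9 in WT, and Ear6 the smallest share of windows in other genes, 1.07%.

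Relatives of the granule genes did not move as 1 block. Of 10 listed relatives 6 had a row and 4 were tested, of which 1 rose and 1 fell. Their median log2 fold change was 0.52, against -0.01 over all genes tested, of which 15.2% rose and 7.56% fell. Prg3, a homolog of Prg2 whose transcript was 66.7% identical over 810 aligned bases, averaged 5.99 ± 2.40 in KLHL3-KI and 3.49 ± 0.195 in WT and did not pass (limma adjusted p = 0.123), though it did without KLHL3-KI replicate 1 (0.00778). The gene that rose was the neutrophil peroxidase Mpo, at 107 ± 30.1 in KLHL3-KI and 7.86 ± 3.92 in WT. The gene that fell was the ribonuclease Rnase6, at 46.8 ± 4.65 and 70.2 ± 0.165, whose call ended without WT replicate 2 (limma adjusted p = 0.0574). Rnase4 had a log2 difference of 0.45 and did not pass (limma adjusted p = 0.131), though it did without KLHL3-KI replicate 2 (0.0248). Ear10 and the lactoperoxidase Lpo were under the minimum level in both groups.

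Of 18 listed genes of interleukin-5 family signalling 13 were tested, 2 rose and 0 fell, with a median log2 fold change of -0.09. The share that rose was near the 15.2% of all genes tested. Of the 18 genes 14 had a row, and the ligand genes Il5, Il3 and Csf2 had none under their symbols. The feedback inhibitors Socs3 and Cish rose by 0.84 (SE 0.13, limma adjusted p = 0.00134) and 0.81 (SE 0.19, 0.0131). The call of Cish was lost without WT replicate 1 (0.0664), without WT replicate 2 (0.110) and without KLHL3-KI replicate 2 (0.0842). Jak2, the kinase on the shared beta chain, and Csf2rb2, a beta chain gene, had log2 differences of 0.21 and -0.24 and did not pass, though Csf2rb2 was lower after quantile normalization (0.0370) and with equal totals per library (0.0326). The number of these genes that fell was 3 after quantile normalization and 2 with equal totals.

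Of 10 listed chemokine genes and their receptors 5 were tested, 2 rose and 0 fell (median 0.50), against 15.2% and 7.56% of all genes tested. Ccr1, a chemokine receptor of several myeloid cells, averaged 25.1 ± 4.18 in KLHL3-KI and 8.05 ± 1.11 in WT and rose by 1.52 on the log2 scale (SE 0.17, limma adjusted p = 1.76e-04). The chemokine Ccl9 rose by 0.70 (SE 0.18, 0.0227), a call lost without WT replicate 1 (0.0772), WT replicate 2 (0.163) or KLHL3-KI replicate 2 (0.143), with DESeq2 (0.0737) and with no variance trend (0.0567). The Ccr3 ligand Ccl24 was at 3.10 ± 1.27 and 1.97 ± 1.32, with overlapping libraries, and eotaxin-1 (Ccl11) was under the minimum level. The Ccr3 ligand Ccl5 had a log2 difference of -0.24 and did not pass, though it was called lower after quantile normalization (limma adjusted p = 0.0215) and with equal totals (0.0166).

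Of 14 transcription regulators known from eosinophil development 4 rose and 1 fell (median 0.17), against 15.2% and 7.56% of all genes tested. Gata1, required for eosinophils and also for red cells, averaged 82.7 ± 17.4 in KLHL3-KI and 10.9 ± 1.03 in WT, a log2 fold change of 2.80 (SE 0.15). Its cofactor Zfpm1 rose by 2.14 (SE 0.13) and Cebpb by 0.93 (SE 0.16). Cebpe, needed for late granule genes of neutrophils and eosinophils, rose by 1.80 (SE 0.30), with only 8 and 2 reads in WT. The WT mean of Cebpe, 0.551, was under the minimum of 1, so it entered the test only through its KLHL3-KI values. Limma adjusted p values of these 4 genes ran from 2.65e-06 to 0.00301. The gene that fell was Irf8, at 265 ± 10.7 in KLHL3-KI and 363 ± 24.5 in WT, and its call ended without WT replicate 2, and also when the variance trend was dropped. Of 15 tested surface and effector genes 6 rose and 1 fell (median 0.18). The interleukin-33 receptor Il1rl1 averaged 45.7 ± 12.8 and 5.88 ± 0.388, a log2 fold change of 2.74 (SE 0.19). The lipoxygenase Alox5 rose by 1.57 (SE 0.18) and the integrin Itgam by 1.16 (SE 0.16), while the integrin Itgb7 fell by 0.64 (SE 0.10), and the highest limma adjusted p among them was 0.00126. Many of these genes are shared with other myeloid cells, red cell precursors or lymphocytes. Without WT replicate 2, 3 of the surface and effector genes rose.

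Markers of other cells moved in the same libraries, in which 15.2% of all genes tested rose and 7.56% fell with limma. All 12 neutrophil granule genes rose (median 3.72), with a summed level of 1504 and 2042 in KLHL3-KI, against 165 and 80.3 in WT. Among them Ctsg had a WT mean of 0.691, under the minimum of 1, and entered the test only through its KLHL3-KI values. Mmp8, S100a9, S100a8 and Lcn2 rose by 3.41, 3.68, 3.76 and 4.11 on the log2 scale. KLHL3-KI replicate 2 was the higher of its group and WT replicate 1 the higher of its group in this sum. The same order of libraries was seen for all 5 eosinophil genes that rose and for the summed basophil and monocyte lists. In WT it was near a tie for Prg2 (11.97 and 11.94) and Ear2 (15.9 and 15.7). Single genes of those lists, such as Prss34 and Cx3cr1, did not all follow it. The share of all genes with this order was not counted. The ratio of Prg2 to the neutrophil elastase gene Elane was 1.67 and 1.73 in KLHL3-KI, against 4.46 and 7.67 in WT, and that of Epx to Mpo was 0.157 and 0.259 in KLHL3-KI, against 0.295 and 0.184 in WT. Of 11 listed basophil and mast cell genes 6 were tested, 3 rose and 0 fell (median 0.92). Prss34 and Mcpt8 had WT means of 0.371 and 0.164, under the minimum of 1. They entered the test only through their KLHL3-KI values, so the filter shapes this count and median. Summed levels over 11 genes were 85.9 and 121 in KLHL3-KI, against 64.1 and 57.1 in WT. Much of that sum was Kit, at 47.6 and 57.3 in KLHL3-KI and 49.3 and 44.5 in WT. Kit did not pass (limma adjusted p = 0.404), nor did Cd200r3 (0.650), and Ms4a2 and Fcer1a were under the minimum level. Hdc, Prss34 and Mcpt8 rose by 2.32, 2.03 and 1.48, while the mast cell protease Cpa3 did not pass. WT replicates 1 and 2 held only 2 and 5 reads of Prss34 and 2 and 1 of Mcpt8. Mcpt8 lost its call without WT replicate 1 (limma adjusted p = 0.0587) and without WT replicate 2 (0.0893). Apart from Il4, which had 0 reads in KLHL3-KI replicate 2, each marker of the neutrophil, basophil, monocyte and B-1 cell lists had reads in each library.
Among 12 genes of monocytes and macrophages, 4 rose and 2 fell (median 0.15), against 15.2% and 7.56% of all genes tested. Their summed levels were 2495 and 2763 in KLHL3-KI, against 2224 and 1998 in WT. Ccr2, Cd209b and Vcam1 rose by 0.81, 0.71 and 0.53 and Ace fell by 0.78. Vcam1 was not called without WT replicate 2 (limma adjusted p = 0.0965) or with no variance trend (0.0612). Of 8 B-1 cell genes 0 rose and 3 fell (median -0.32), against the same 15.2% and 7.56% of all genes. Summed levels of the B-1 cell genes were 291 and 282 in KLHL3-KI, against 346 and 317 in WT. Cd5, Tnfrsf13b and Bhlhe41 fell by 0.91, 0.55 and 0.54, and Plscr1 did not pass, except without KLHL3-KI replicate 1 (0.00112) and with a replicate block (0.0403). The calls of Tnfrsf13b and Bhlhe41 were lost without WT replicate 2 (0.0767 and 0.271), and that of Bhlhe41 also without WT replicate 1 (0.0640) or KLHL3-KI replicate 2 (0.145). With no variance trend both were lost too (0.0510 and 0.0774), and Bhlhe41 was lost with DESeq2 (0.142) and with no filter (0.0621). The part of these cell types in the differences of the eosinophil genes was not tested.

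**Figure D4:**
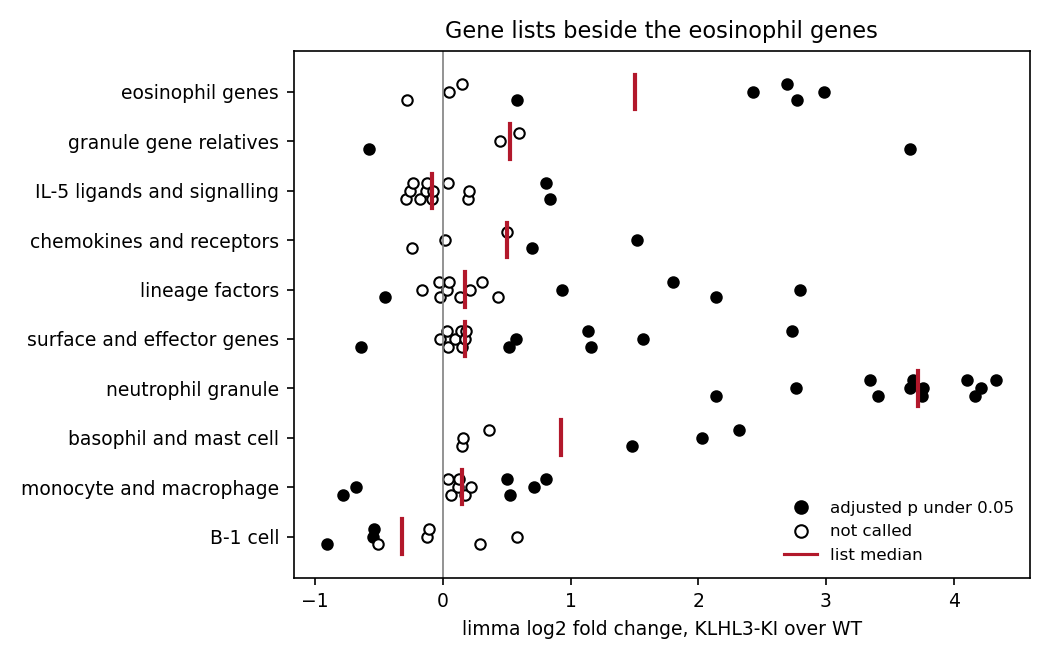
Limma log2 fold change of KLHL3-KI over WT for the tested genes of each list; filled circles had an adjusted p under 0.05, open circles did not, and red lines are list medians. The eosinophil genes split into 4 genes above 2.4 and 4 genes under 0.6, and all 12 neutrophil granule genes lie above 2.1.

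By the distance between centred log2 profiles over the 4 libraries, among 11069 genes compared, the genes closest to Prg2 were an identifier named Chtf8 (ENSMUSG00000117748, a name it shares with another identifier) at 0.216, Hp at 0.225 and Ccdc24 at 0.237. The genes closest to Epx were Itgb2l at 0.541, Retnlg at 0.629 and Prtn3 at 0.657. Hp had 40.1 and 61.4 in KLHL3-KI, against 8.73 and 7.06 in WT. Retnlg had 27.0 and 58.6 in KLHL3-KI, against 7.72 and 4.98 in WT. Such distances depend on the size of a difference as well as on its shape, and with 4 libraries they are descriptive only.

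Over the whole table, the recovered reads came to 9586677 and 10933023 in KLHL3-KI and 8535483 and 8975415 in WT. Klhl3 itself had 2.53 and 1.36 in KLHL3-KI, against 3.02 and 4.67 in WT, and did not pass (limma adjusted p = 0.0895). With limma 2583 genes rose and 1283 fell. The split was 2041 and 2369 after quantile normalization and 1916 and 3130 with equal totals per library, and that last scaling moved the median of all log2 fold changes to -0.16, against -0.01. Of 11 spleen genes, all of them detected, 2 rose and 6 fell (median -0.57), against 15.2% and 7.56% of all genes tested. Among these spleen genes Cd3e and Cd4 fell by 0.87 and 0.80, and Hba-a1 rose by 0.95.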

How the data were processed

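Trimmomatic 0.38, Bowtie2, RSEM 1.3.0 and edgeR with build GRCm39 are named in the submitters' processing notes, with no role, order, annotation or filter. The table deposited by the authors holds 1 normalized signal per gene and library. All values (100%) were whole multiples of the smallest value above 0 of their library within 0.001, so whole reads were recovered by division, and on the deposited scale 1 read was worth 0.110, 0.0974, 0.112 and 0.104 in KLHL3-KI replicates 1 and 2 and WT replicates 1 and 2. No label states those factors. Columns were matched to samples by library name, and groups taken from the titles. Symbols came from an annotation of build GRCm38 (23605 of 23763 identifiers matched), so gene coordinates are not given; promoters are credited to RefSeq on GRCm38.p6.

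Genes whose mean value was at least 1 were compared on log2(value + 1) with limma 3.58.1 in R 4.3.3 (mean-variance trend, two-sided, Benjamini-Hochberg adjustment over 16970 genes). edgeR 4.0.16 (quasi-likelihood) called 3888 genes and DESeq2 1.42.0 called 2816 on the recovered reads of the same genes. Alternatives covered the pseudocount, the filter, the scaling, the variance model, a replicate block and each library left out. The limma script was tested on simulated reads with the same set spread for every gene, which checks the code and not the calls made here. Sequence alignments used Biopython 1.88 in Python 3.11.15; no label gives the read length, so windows of 50 bases are a choice. Named genes were the 8 members, up to 4 genes with the lowest p of each list and 3 genes with the closest profile to Prg2 and to Epx among named genes with a mean of at least 5; other genes, such as Irf8, Ccl11, Lpo, Ear10, Elane and Klhl3, were named after their values were seen. Of the genes the rule named, 1 is not reported here. The members and lists were chosen with earlier results of these data known.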

Additional observations from a re-analysis of the deposited data

How the results depend on the processing

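Prg2, Ear1 and Ear6 rose in all 16 alternatives run, Epx in 15 and Ear2 in 10; Ccr3 and Il5ra passed in 0 of 16 and Siglecf in 0 of 14 that gave an adjusted p (DESeq2 gave none, and a mean of at least 5 left the gene out). Epx kept its log2 difference of 2.98 under the robust variance model but not its call. For Ear2 the log2 difference was 0.62 with DESeq2, 0.42 with equal totals and 0.58 without a variance trend, none of them called, and 0.41 to 0.75 with 1 library left out. With equal totals the sign changed, to a log2 difference of -0.0199 for Ccr3 and -0.0540 for Siglecf; with 1 library left out Ccr3 ran from -0.10 to 0.39 and Siglecf from -0.36 to 0.46. The cause was not tested. The count of all genes called was 2462 without a variance trend and 1653 to 4530 with 1 library left out, against 3866. Of these, 1386 to 2903 rose, and the number that fell was 267 to 1627, with 793 for DESeq2, 2369 after quantile normalization, 3130 with equal totals and 659 without a variance trend. Genes of the other lists that fell numbered 7 without a variance trend, and 7 when WT replicate 2 was left out, against 14. The monocyte and macrophage list had 2 rises and 1 fall with no variance trend, 2 rises without WT replicate 2 and 1 fall without WT replicate 1, against 4 and 2. The B-1 cell list had 1 fall without WT replicate 2 or a variance trend, against 3, and the spleen list had 3 in the same settings, against 6. The granule relatives had 2 rises with either KLHL3-KI replicate left out, against 1, and the basophil list 1 rise with a mean of at least 5, against 3. The lineage factors had 2 falls after quantile normalization or with equal totals, against 1. Of 40 other named genes 32 were called, 25 of them in each alternative that gave an adjusted p, and 5 uncalled genes passed in at least 1; none of the 40 changed sign. With a replicate block 4130 genes were called, and the 5 members that rose and 0 that fell did not change in number; replicate numbers come from the titles, have no stated origin and differ from the numbers in the library names for 3 of 4 libraries, and same-numbered libraries by title did not deviate together (r = -0.03 across genes, which are not independent replicates). Few reads stand behind Siglecf, with 9 to 26 a library and a ratio of 2.55 between the KLHL3-KI libraries. The WT values of Epx, Ear1 and Ear6 rest on 7 to 28 reads, and those of Prss34, Mcpt8 and Cebpe on few as well. Lone libraries in the fits that leave 1 out are assumed to vary like the other group.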
